A study of Mus musculus with 8 samples.

Results

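Actomyosin is the contractile apparatus of the cell: filaments of actin, on which bipolar filaments of myosin II pull when the regulatory light chain of myosin is phosphorylated by myosin light chain kinase. Tropomyosins, caldesmon, calponins and transgelins sit along the actin filament and set how myosin reaches it, while actinins, filamins, vinculin and zyxin bundle the filaments and tie them to adhesions. In fibroblasts these proteins build stress fibres, and many of their genes are transcribed by serum response factor (Srf) with its actin-sensing cofactors, the myocardin-related factors Mkl1 and Mkl2. A set of 36 genes of this apparatus was chosen by symbol, and all 36 were listed among the 24062 genes of the RNA-seq table.

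NIH3T3, a continuously growing line of mouse embryo fibroblasts, was the source of every clone. Clones 10 and 12 carried a p3xFLAG-CMV-10 plasmid for FLAG-tagged 14-3-3ε, a protein that binds phosphorylated partners, and clones 2 and 3 were control clones with the vector. The cells grew in medium with 10% serum, and clones were selected under 800 µg/mL of the drug G418, each sample being 1 clone grown from a picked colony. Each clone was measured by RNA-seq and by RRBS, a bisulfite sequencing method of reduced representation that measures methylation at cytosines in CpG-rich fragments, making 8 samples in 4 groups of 2. The design asked how DNA methylation and transcript profiles differ in clones that overexpress 14-3-3ε.

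Both tables analysed here hold the authors' comparison of the groups and no value per clone, so the level of a gene in a single clone, its overlap between groups and the depth of a library cannot be shown. Neither table states its sign. A positive value was taken to mean more in the 14-3-3ε clones, and every direction below rests on that reading. The level of Ywhae, the mouse gene of 14-3-3ε, did not check it, with a log2 fold change of -0.03 and an adjusted p = 0.942 by the authors' deposited table. Fibroblast markers were all well detected, 11 of 11 with a mean normalized count of 2189 or more in the authors' deposited table. Of the 11, 5 (Col1a1, Col1a2, Col3a1, Pdgfra and Pdgfrb) rose at an adjusted p under 0.05, beside 6.15% of all tested genes. Of 8 smooth muscle markers none was called: Acta2, Smtn, Actg2 and Lmod1 had mean normalized counts of 97.9 to 15851, while Synpo2, Myh11, Cnn1 and the regulator Myocd lay between 1.28 and 24.2 in the authors' deposited table. Of 6 skeletal muscle markers Actn3 and Tnnt3 had 97.6 and 41.0 in the authors' deposited table, and Myod1, Myf5, Myog and Ckm were at 1.98 or less. Of 5 cardiac markers the transcription factor genes Gata4 and Nkx2-5 had 857.8 and 179.2 in the authors' deposited table, and Myh6, Tnni3 and Nppa were at 1.94 or less. None of these skeletal or cardiac markers was called by DESeq2. Of the listed muscle markers with an adjusted p, Acta2 alone had an unadjusted p under 0.05. The muscle genes Des and Tnnt2, members of the set that are not in these marker lists, were called lower and are described below. Of 5 endothelial markers none was high enough to receive an adjusted p, the highest being Vwf at a mean normalized count of 14.3 in the authors' deposited table. Of 5 epithelial markers Krt14, at a count of 52.7, fell by 1.41 on the log2 scale (DESeq2 adjusted p = 0.00411). Krt8, at 51.1, was not called, and the others were at 0.73 or less in the authors' deposited table. Of 5 blood markers Cd68, at 109.6, was not called, and the others were at 10.2 or less.

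At an adjusted p under 0.05, 3 of the actomyosin genes rose and 2 fell in 14-3-3ε clones. The gene of a kinase that switches on myosin II, Mylk, a regulatory light chain gene, Myl9, and the actin-binding protein gene Cald1 rose. The muscle intermediate filament gene Des and the cardiac troponin gene Tnnt2 fell. These 5 calls were among 33 members with an adjusted p. Over all 11482 genes with an adjusted p, 6.15% rose and 4.74% fell by the same rule, so a share of 3 in 33 higher and 2 in 33 lower lies near what the table as a whole gives, where 10.9% were called in either direction. In RNA from whole cultures, fewer cells of a kind and less RNA per cell cannot be told apart. Whether the rise of the fibroblast markers has a part in these results was not tested.

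The fold changes of the members nevertheless lay mostly on one side. The median over the 33 was 0.36 (log2, from the authors' deposited table), beside -0.00 over all tested genes, and 25 of the 33 were above 0, beside 49.8% of all tested genes. By the unadjusted p of the authors' deposited table, 12 were higher and 4 lower under 0.05, beside 12.0% and 11.8% of all tested genes (23.8% in either direction). A mean normalized count of at least 1000 was reached by 27 of the 33 in the authors' deposited table. Of those 27, 1 rose and none fell by the adjusted p, beside 6.33% each way of 5547 genes at that level. By the unadjusted p, 10 of the 27 were higher and 2 lower, and 21 had a fold change above 0. Of the 5547 genes, 11.3% and 14.7% were higher and lower by the unadjusted p, and 45.8% had a fold change above 0. The members were chosen together as a family and are not independent of each other, so these shares describe the set and test nothing.

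**Figure D1:**
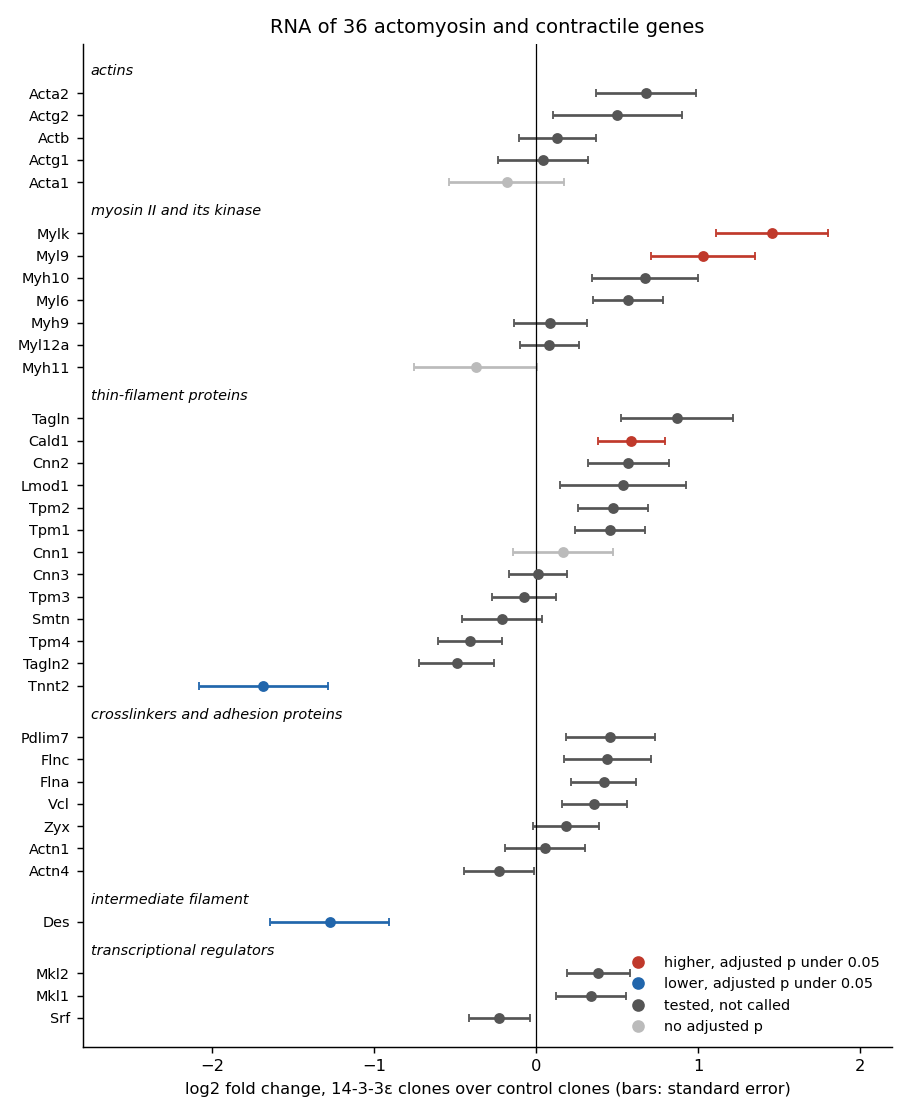
Log2 fold change of each of the 36 genes, 14-3-3ε clones over control clones, in the authors' deposited table, grouped by role. Points are the estimates and bars the deposited standard errors; Mylk at 1.46 and Tnnt2 at -1.68 lie farthest out on either side.

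Myosin II and its kinase held the clearest rises. Mylk, on chromosome 16 from 34745199 to 35002436, encodes myosin light chain kinase and overlaps the annotated RNA genes 1700119H24Rik and E130310I04Rik (gene positions throughout are RefSeq's on GRCm38.p6). Mylk had a mean normalized count of 573.1, a log2 fold change of 1.46 (about 2.74-fold), standard error 0.35 and adjusted p = 0.000838 by the authors' deposited table. Myl9, on chromosome 2 from 156775408 to 156781657, encodes a regulatory light chain of smooth muscle and non-muscle myosin. Its mean normalized count was 821.2, its log2 fold change 1.03 (about 2.05-fold), its standard error 0.32 and its adjusted p 0.0187 in the authors' deposited table. RNA of the kinase and of this regulatory light chain was thus higher in 14-3-3ε clones. The similar light chain genes Myl12a and Myl12b were not called, so this does not hold for the regulatory light chains as a group.

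The other myosin genes did not pass the test. Myh10, the heavy chain of non-muscle myosin IIB, had in the authors' deposited table a log2 fold change of 0.67 (standard error 0.33, adjusted p = 0.182). Myl6, the essential light chain gene, came closer, with 0.57, standard error 0.22 and adjusted p = 0.0667 by the authors' deposited table. The heavy chain gene of non-muscle myosin IIA, Myh9, was at 0.09 and the second regulatory light chain gene, Myl12a, at 0.08 (log2, from the authors' deposited table). All 6 tested members of this group had a fold change above 0, beside 49.8% of all tested genes. The smooth muscle heavy chain gene Myh11 had too few reads for an adjusted p. Myl9, Myl12a and Myl12b encode closely similar light chains, so how reads were divided among them is uncertain. Myl12b, which stands outside the set, was at 0.19 (log2, from the authors' deposited table).

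No actin gene passed the test in the authors' DESeq2 comparison, and 1 of 4 tested had an unadjusted p under 0.05, beside 23.8% of all tested genes. That gene was Acta2, the smooth muscle α-actin that marks contractile fibroblasts, with a mean normalized count of 15851 and a log2 fold change of 0.68 in the authors' deposited table. Its standard error was 0.31 and its adjusted p 0.150 in the authors' deposited table, and the 95% interval from that standard error ran from 0.07 to 1.28. Actb and Actg1, the cytoplasmic β- and γ-actins that make up most actin of a fibroblast, were at 0.13 and 0.04 (log2, from the authors' deposited table). Their 95% intervals ran from -0.34 to 0.60 and from -0.50 to 0.58. The smooth muscle γ-actin gene Actg2 was at 0.50 with a standard error of 0.40 in the authors' deposited table. Acta1, the skeletal α-actin, had a mean normalized count of 8.06 in the authors' deposited table and no adjusted p. Actin coding sequences are nearly identical between genes, so reads shared between them make each value uncertain.

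Of 12 tested thin-filament genes 1 rose and 1 fell, beside 6.15% and 4.74% of all tested genes. Cald1, the gene of caldesmon, which binds actin, tropomyosin and myosin, lies on chromosome 6 from 34598495 to 34775469. It rose by 0.59 on the log2 scale, with a mean normalized count of 26239, standard error 0.21 and adjusted p = 0.0426 by the authors' deposited table. This call rests on the authors' filter of weak genes: adjusted over all 17478 genes with a p-value, Cald1 had an adjusted p = 0.0641. Tnnt2, the tropomyosin-binding troponin of heart muscle, on chromosome 1 from 135836315 to 135852268, moved the other way. It fell by 1.68 on the log2 scale, about 3.21-fold lower, with a mean normalized count of 167.6, standard error 0.40 and adjusted p = 0.000780 by the authors' deposited table.

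Among the other thin-filament genes, Tagln, whose product transgelin is an early marker of smooth muscle and myofibroblasts, stood highest. Its log2 fold change was 0.87, its standard error 0.35 and its adjusted p 0.0882 in the authors' deposited table, and its annotated span overlaps Pcsk7. The calponin gene Cnn2 had 0.57 with an adjusted p = 0.128, and the actin-nucleating leiomodin gene Lmod1 had 0.54 with an adjusted p = 0.422, in the authors' deposited table. The 4 tropomyosin genes divided by sign. Tpm2 and Tpm1 were at 0.48 and 0.46, while Tpm3 and Tpm4 were at -0.08 and -0.41 (log2, from the authors' deposited table). Adjusted p-values of the tropomyosins in the authors' deposited table were 0.150 for Tpm2, 0.165 for Tpm1, 0.868 for Tpm3 and 0.181 for Tpm4. The difference between these pairs was not tested. Tagln and its relative Tagln2 likewise differed in sign, with Tagln2 at -0.49 and an adjusted p = 0.163 by the authors' deposited table. Cnn3 at 0.01 and the smooth muscle gene Smtn at -0.21 were also not called in the authors' deposited table, and Cnn1 had no adjusted p.

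None of the 7 crosslinker and adhesion genes passed the test in the authors' DESeq2 comparison. By the unadjusted p, 1 was under 0.05, beside 23.8% of all tested genes. That gene was Flna, the X-linked filamin A, at 0.42 with an adjusted p = 0.176 by the authors' deposited table. The group spanned from -0.23 for the actinin gene Actn4 to 0.46 for the LIM-domain gene Pdlim7 (log2, from the authors' deposited table). Vcl, the gene of vinculin, which links talin to actin, was at 0.36, the muscle filamin gene Flnc at 0.44, the zyxin gene Zyx at 0.18 and Actn1 at 0.05 (log2, from the authors' deposited table). Des, whose product desmin forms the intermediate filaments of muscle, lies on chromosome 1 from 75360292 to 75368579. It fell by 1.28 on the log2 scale, about 2.42-fold lower, with a mean normalized count of 58.9, standard error 0.37 and adjusted p = 0.00931 by the authors' deposited table.

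**Figure D2:**
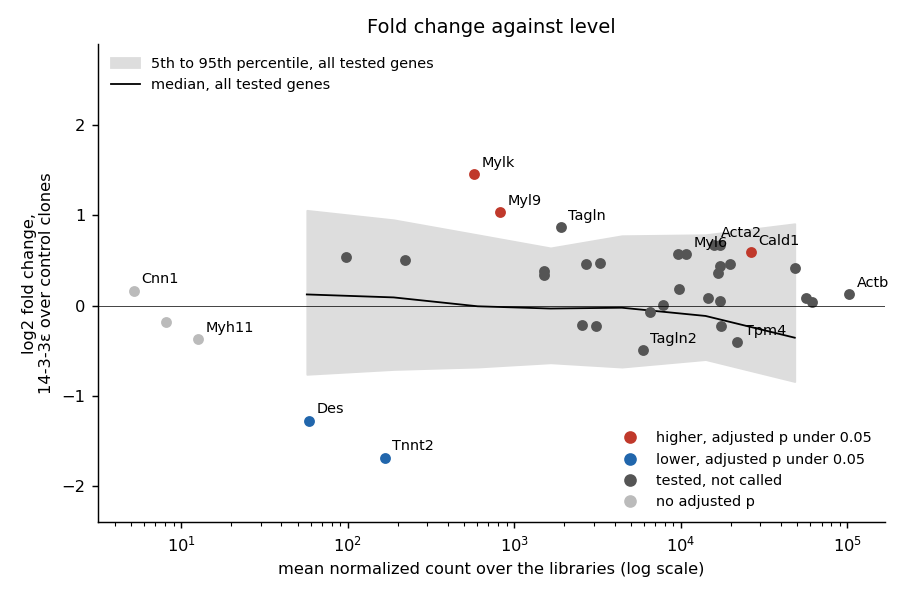
Log2 fold change against the mean normalized count (log axis) for the 36 genes in the authors' deposited table, with the band from percentile 5 to percentile 95 of all tested genes at like levels in grey and their median as a line. Mylk, Myl9 and the uncalled Tagln lie above the band at counts of 573.1, 821.2 and 1914, and Des and Tnnt2 below it at 58.9 and 167.6.

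The transcriptional regulators themselves did not pass the test in the authors' DESeq2 comparison. By the unadjusted p, 1 of the 3 was under 0.05, beside 23.8% of all tested genes. Srf had in the authors' deposited table a log2 fold change of -0.23 (standard error 0.19, adjusted p = 0.506). Mkl1 and Mkl2, now named Mrtfa and Mrtfb, were at 0.34 and 0.38 with adjusted p-values of 0.349 and 0.207 in the authors' deposited table. These are RNA levels, and the activity of the cofactors depends on their place in the cell, which was not measured.

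The promoters were searched for exact matches to the site Srf binds. Sites with other letters, or outside the stretch searched, were not counted, so a gene without a match may still hold one. The CArG box, a run of A and T between CC and GG, was searched in RefSeq promoter sequences of 300 bases in build GRCm38.p6, reaching from 250 bases before an annotated start to 50 bases after it. The consensus reads the same on both strands, so each match was counted once. Sequences were at hand for 32 of the 36 genes, 40 in all, and 7 genes held 8 boxes between them, or 21.9% of those 32. Actb, Actg2, Tagln and Myh11 had no sequence and were not searched. Of 27025 genes with a promoter sequence, 1.81% held a box. Several of the 36 are textbook Srf targets, so a high share was built into the set. Each box is printed with 10 bases on either side, box in capitals, on the strand of the gene, to show how the sites compare.
Acta1: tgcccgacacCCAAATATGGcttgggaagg
Actg1: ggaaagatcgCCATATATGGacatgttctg
Cnn2: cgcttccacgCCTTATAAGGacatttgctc
Myl9: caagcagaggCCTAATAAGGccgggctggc
Myl6: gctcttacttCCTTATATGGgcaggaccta
Vcl: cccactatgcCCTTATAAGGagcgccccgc
Srf, distal: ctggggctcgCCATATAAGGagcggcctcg
Srf, proximal: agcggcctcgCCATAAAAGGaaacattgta
They lie at chr8:123894829-123894858 on the minus strand for Acta1, chr11:120348566-120348595 (minus) for Actg1 and chr10:79988534-79988563 (plus) for Cnn2. That of Myl9 is chr2:156775293-156775322 (plus), that of Myl6 chr10:128493040-128493069 (minus) and that of Vcl chr14:20929161-20929190 (plus). The pair of Srf lies at chr17:46556225-46556254 and chr17:46556205-46556234 (minus). The Cnn2 and Vcl boxes are the same run of bases. The first base of the box stood 50 bases before the start in Myl6, 56 in Cnn2, 73 in Acta1, 90 in Actg1, 161 in Myl9 and 227 in Vcl, and 82 and 62 in Srf, whose own promoter is a known Srf target. Of the 7 genes with a box, Myl9 rose, 5 were tested and not called, and Acta1 had no adjusted p. The windows of the other called members, Mylk (at its start inside the gene), Cald1, Des and Tnnt2, held no match to these letters.

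Methylation was read at 2361680 cytosines, as differences in percentage points between the groups with a q-value each, and 2.83% of them were lower and 1.92% higher at q under 0.05. Within the annotated spans of the 36 genes 4340 cytosines were listed, of which 54 were lower and 48 higher in 14-3-3ε clones at q under 0.05 in the authors' deposited table. That is 1.24% and 1.11% of them, beside 2.56% and 1.80% in the spans of all genes. Within 1000 bp of their starts, 29 of 2545 listed cytosines were lower and 22 higher (1.14% and 0.864%), beside 1.98% and 1.49% at the starts of all genes (3.47% in either direction). Calls were therefore less frequent at these genes than in the table at large, which is a description without a test. Of the calls at starts, Tpm2 alone held 13 of the 29 lower and 2 of the 22 higher. Starts had at least 5 listed cytosines in 30 of the 36 genes. The mean difference there was within 1 point of 0 in 22 of the 30, beside 59.1% of 14504 gene starts, and at least 1 cytosine was called in 15 of the 30, beside 58.5%. Whether the q-values include the spread between clones, and the coverage behind them, is unknown here.

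No cytosine was listed within 1000 bp of the starts used for Acta2, Actg2, Mylk, Cald1, Flna and Tnnt2, 3 of them genes whose RNA changed. For Mylk and Flna the promoter table gives a start inside the gene, 39.8 kb and 3.32 kb from the first base of the annotated span, and cytosines were listed at that first base. At Mylk they were 16, between 32 and 129 bp past it, with a mean difference of 2.21 points, a range from -15.4 to 12.8 points and none called at q under 0.05 in the authors' deposited table. At Flna they were 34, with a mean of 0.28 points and none called in the authors' deposited table. This look at the first base was added after the values were seen. The 5 genes whose RNA changed thus divided into Cald1 and Tnnt2, with no cytosine listed near a start, Mylk, with none called at its first base, and Myl9 and Des, which held calls.

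Upstream of Myl9, methylation was higher in 14-3-3ε clones. Of 12 cytosines listed between 419 and 811 bp before the start, 5 were called higher and none lower, with a mean difference of 15.6 points in the authors' deposited table. The 5 were differences of 41.4 points at 538 bp, 20.2 and 38.4 at 484 and 483 bp, and 17.1 and 37.4 at 420 and 419 bp before the start in the authors' deposited table. The last 4 are both strands of a pair of CpGs, so they stand for fewer sites than cytosines. Nearer the start nothing was called upstream: 23 cytosines between 1 and 371 bp averaged -2.94 points in the authors' deposited table. Past the start, 1 cytosine was higher, by 17.0 points at 15 bp, and 2 were lower, with -9.57 and -17.7 points at 207 and 212 bp in the authors' deposited table. The whole window of 54 cytosines averaged 0.71 points, and with 500 bp on each side the mean was -0.73, so the window mean has no stable sign. At least 6 cytosines called higher were found at 2.87% of gene starts. The RNA of Myl9 rose while this distal stretch gained methylation, and the stretch was chosen after its values were seen.

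The Myl9 promoter, at chr2:156775214-156775513 on the plus strand of GRCm38.p6, is printed to place the CArG box and the called cytosine, with the box and that CpG in capitals.
Myl9: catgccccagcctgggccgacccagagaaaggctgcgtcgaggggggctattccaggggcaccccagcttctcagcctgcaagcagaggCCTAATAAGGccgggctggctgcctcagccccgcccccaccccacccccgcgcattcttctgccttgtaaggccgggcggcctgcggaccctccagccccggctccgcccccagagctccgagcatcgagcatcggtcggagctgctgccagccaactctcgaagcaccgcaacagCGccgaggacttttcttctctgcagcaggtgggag
The box has no CpG within it, and the cluster of higher calls lies outside the printed stretch, farther upstream.

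At Des, whose RNA fell, 3 of 163 cytosines around the start were higher and none lower in the authors' deposited table. They were 14.8 and 27.6 points at 345 and 331 bp and 28.6 points at 18 bp before the start in the authors' deposited table, all on the upstream side, where 26 listed cytosines averaged 3.98 points. Downstream, 137 cytosines averaged -1.22 points with none called in the authors' deposited table. The window mean was -0.39 points, and 0.86 with 500 bp on each side. At least 3 higher calls were found at 11.9% of gene starts, and none of the 3 passed a q of 0.01. The promoter, at chr1:75360042-75360341 on the plus strand of GRCm38.p6, is printed with the CpG 18 bp before the start in capitals.
Des: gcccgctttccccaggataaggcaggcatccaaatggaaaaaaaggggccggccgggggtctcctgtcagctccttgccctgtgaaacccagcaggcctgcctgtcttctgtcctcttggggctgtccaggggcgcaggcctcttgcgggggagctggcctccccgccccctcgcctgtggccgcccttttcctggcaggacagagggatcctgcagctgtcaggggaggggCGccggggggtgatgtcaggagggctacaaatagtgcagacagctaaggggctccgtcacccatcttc

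Tpm2, the β-tropomyosin gene, had the most called cytosines at its start. Of 103 listed, all upstream, 13 were lower and 2 higher, with a mean difference of -4.85 points in the authors' deposited table. At least 13 lower calls were found at 0.745% of gene starts, and a mean this low or lower at 4.67%. The lower calls were gathered at the far end: of 15 cytosines between 901 and 989 bp before the start, 10 were called lower, and the 15 averaged -21.9 points in the authors' deposited table. The largest were -39.3 and -35.9 points, on both strands of a CpG 966 and 965 bp before the start, in the authors' deposited table. Over the remaining 88 cytosines, from 21 to 900 bp, 3 were lower and 2 higher, with a mean of -1.95 points in the authors' deposited table. Within 500 bp of the start the mean was -0.13 points with 1 lower and 1 higher call. The stretch, at chr4:43524455-43524543 in mm10, was singled out after its values were seen. RNA of Tpm2 was at 0.48 on the log2 scale and did not pass the test in the authors' deposited table.

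**Figure D3:**
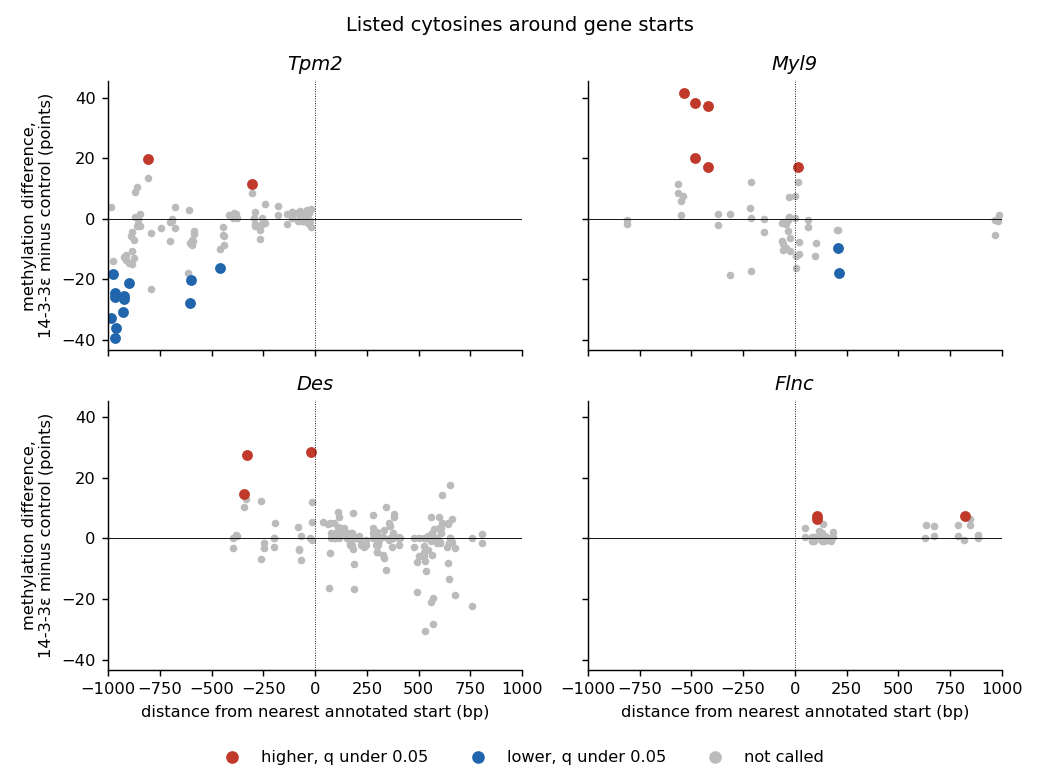
Methylation difference of each listed cytosine, 14-3-3ε minus control clones, in percentage points, against its distance from the nearest annotated start of Tpm2, Myl9, Des and Flnc. Each point is 1 cytosine of the authors' deposited table; the lower calls of Tpm2 gather between 901 and 989 bp upstream, and 5 higher calls of Myl9 between 419 and 538 bp upstream.

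The other starts held 6 calls or fewer each. Of gene starts, 42.7% had at least 1 lower call, 37.9% at least 1 higher call and 25.9% at least 2 lower calls. At least 3 higher calls were found at 11.9% and at least 4 at 7.20%. Listed cytosines numbered 42 at Flnc, 122 at Mkl1, 92 at Mkl2, 83 at Myh10, 28 at Lmod1 and 171 at Srf. They numbered 159 at Zyx, 114 at Cnn2, 19 at Acta1, 18 at Tagln, 96 at Tpm3 and 22 at Actb. Flnc had 3 higher calls of 6.25 to 7.27 points within 821 bp after its start in the authors' deposited table. Mkl1 had 4 higher and 2 lower calls, the largest 11.1 points and the lowest -3.61 in the authors' deposited table. Mkl2 had a CpG at 489 and 490 bp past its start with -15.5 and -16.5 points, and Myh10 one at 822 and 823 bp with -21.8 and -23.8 points, in the authors' deposited table. Lmod1 had 2 lower calls, -15.4 and -23.1 points in the authors' deposited table. Srf, Zyx and Cnn2 had 1 higher and 1 lower call each, 24.6 and -13.9 points at Srf, 8.46 and -11.8 at Zyx and 11.5 and -7.53 at Cnn2 in the authors' deposited table. Acta1, Tagln and Tpm3 had 1 lower call each, of -27.9, -23.8 and -8.57 points, and Actb 1 higher call of 15.3 points in the authors' deposited table. The single calls of Acta1, Tagln and Srf were thus of the size of those at Des. The strand and start of Actb, Tagln, Actg2 and Myh11 were not used here, and the end of the gene with more listed cytosines stood in for the start. The starts of Actg1, Myh9 and Actn4, with 180, 167 and 123 listed cytosines, had none called at q under 0.05 in the authors' deposited table.

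Within gene spans, Mylk held the most called cytosines. Of 345 listed over 257.2 kb, 15 were higher and 8 lower, or 6.67% called, beside 4.36% in the spans of all genes. Called differences ran from -41.9 to 61.5 points in the authors' deposited table, the highest at a single cytosine, position 34771960 of chromosome 16. The cytosine on the other strand of that CpG was at -15.7 points and not called. Another 3 higher calls, of 36.6, 44.5 and 21.6 points, lay together at chr16:34758352-34758365 in the authors' deposited table. They are both strands of a CpG and a single strand of a nearby CpG. Lower calls were scattered along the gene, and 4 of the 22 called cytosines with a listed partner on the other strand had that partner called as well, while 16 had it with the same sign. Cnn2, Myh9, Flnc and Mkl1 followed with 7 called cytosines each, and Pdlim7 with 6. The share called was 7.53% in Cnn2, 6.03% in Flnc, 4.93% in Mkl1, 4.76% in Pdlim7 and 1.89% in Myh9, beside the same 4.36%. The called cytosines of Cnn2 lay in 3 neighbouring CpGs and a single cytosine and differed in sign, -32.3 points at position 79990493 and 16.3 at position 79990429 of chromosome 10 in the authors' deposited table. All 5 calls in Smtn, 4.31% of its 116 listed cytosines, were higher, from 16.6 to 28.8 points in the authors' deposited table. In 13 of the 36 genes, Acta2, Cald1, Des and Tnnt2 among them, no cytosine of the span was called. Few were listed in Tnnt2 and Acta2, 6 and 20, beside 98 in Cald1 and 156 in Des. The share of all gene spans without a call was not counted, so these 13 stand without a comparison. Exons and introns were not used here.

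**Figure D4:**
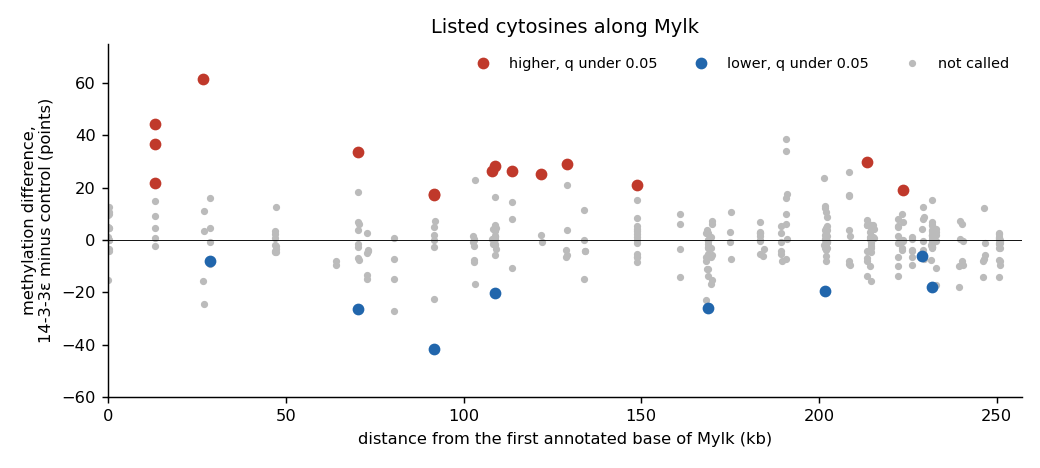
Methylation difference, 14-3-3ε minus control clones, in percentage points, of the 345 cytosines listed in Mylk against distance from its first annotated base in kb, from the authors' deposited table. The 15 higher and 8 lower calls are spread over the gene, with 3 higher calls together near 13.2 kb.

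Genes that work with this apparatus were followed in 6 lists, without the members themselves, of which 5 are described. Over the 119 tested genes of all 6, each counted once, 11 rose and 2 fell, beside 6.15% and 4.74% of all tested genes, with a median of 0.14 (log2, from the authors' deposited table). Of 35 other focal adhesion and stress fibre genes, 5 rose and none fell, with a median of 0.14. Synpo, whose product synaptopodin binds actinin and bundles actin, rose by 2.17, and the LIM-domain gene Pdlim2 rose by 1.61 (log2, from the authors' deposited table). Csrp2, a LIM protein gene of smooth muscle, rose by 1.11, the vinculin-binding gene Sorbs3 by 0.70 and the integrin-linked kinase gene Ilk by 0.63 (log2, from the authors' deposited table). Their adjusted p-values ranged from 1.18e-08 for Synpo to 0.0438 for Ilk in the authors' deposited table.

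Of 18 tested Srf cofactors and Srf targets outside the set, 4 rose and none fell, beside 6.15% and 4.74% of all tested genes, with a median of 0.30 (log2, from the authors' deposited table). By the unadjusted p 4 were higher and 2 lower under 0.05, the lower ones being Ankrd1 at -0.73 with adjusted p = 0.0640 and Filip1l at -0.48 with an unadjusted p of 0.0461 by the authors' deposited table. All 4 are immediate early genes: Egr1 at 1.77, Fos at 1.52, Ier2 at 0.91 and Junb at 0.86 (log2, from the authors' deposited table), with adjusted p-values of at most 0.00484. The immediate early genes Fosb at 0.19 and Mcl1 at -0.04 were not called in the authors' deposited table. Such genes answer to Srf together with its Elk partners, while cytoskeletal targets answer chiefly to the Mkl cofactors. The cytoskeletal targets Csrp1 at 0.40, Fhl1 at 0.37, Tgfb1i1 at 0.37 and Fhl2 at -0.31 in the authors' deposited table, were not called. Of the Srf targets left out of this list as members, Myl9 rose. Acta2, Tagln and Vcl were not called, and Cnn1 had no adjusted p. The difference between these kinds of target was not tested.

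Of 29 actin assembly and severing genes 1 was called, beside 10.9% of all tested genes in either direction. It was Tmsb10, an actin monomer-binding thymosin that rose by 0.71 (log2, from the authors' deposited table). Of 14 other myosin-linked genes 1 was called, beside the same 10.9%. It was Anln, the anillin of the cytokinetic ring, which fell by 0.93 (log2, from the authors' deposited table). Of 37 sarcomere and striated muscle genes, 5 had an adjusted p and 13 stood at 0, and none was called in the authors' DESeq2 comparison, none of the 5 with an unadjusted p under 0.05.

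**Figure D5:**
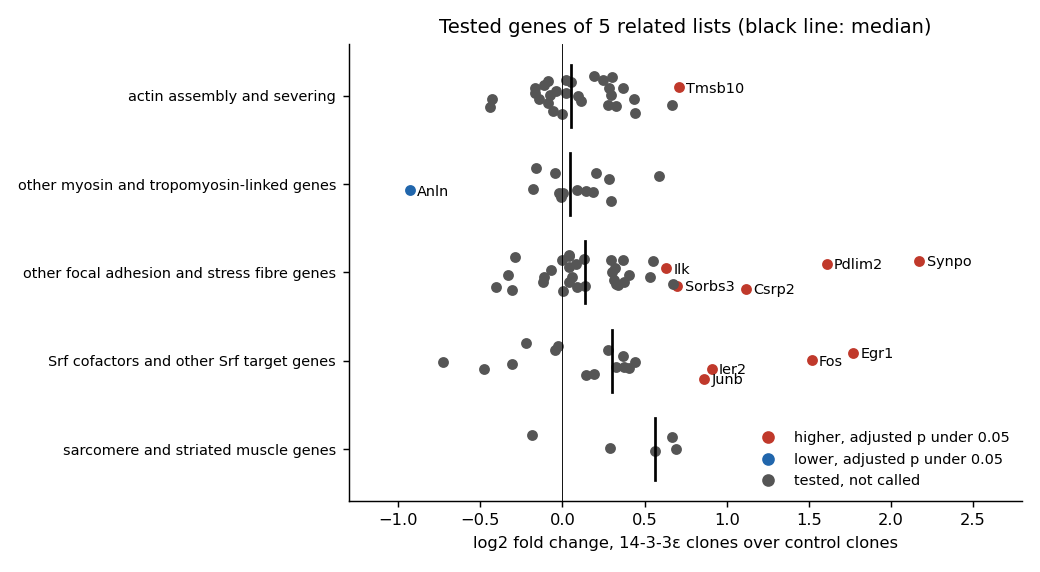
Log2 fold change, 14-3-3ε over control clones, of every tested gene in the 5 related lists described, in the authors' deposited table; the black line is the median of a list. Synpo at 2.17 is farthest to the right, and Anln at -0.93 is the lower call.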

How the data were processed

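RNA and DNA of 4 clones were compared by the authors, and their tables were used as deposited. Trim Galore, Bismark, Bowtie2, methylKit, TopHat2, HTSeq, DESeq2 and build mm10 are named, without version, role or setting, in the submitters' processing notes. The mean normalized count of a gene, a signal deposited by the authors beside DESeq2 columns, was read as the mean count over libraries after division by size factors. It is not per length, so levels of different genes are not compared. The log2 fold change, its standard error and the statistic, a score equal to their ratio, were deposited by the authors. The authors deposited p-values for 17478 of 24062 genes and adjusted ones for 11482, down to a mean level of 33.1; Benjamini-Hochberg adjustment over the 11482 returned them within 2.18e-15. The RRBS table, per the file headers, holds for each cytosine its methylation difference with p-value and q-value; 253 duplicate lines were removed. Handling of clones in that test, coverage and depth per sample are unknown here, so no counting interval is given.

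Genes were called at an adjusted p under 0.05 and cytosines at q under 0.05. Gene spans came from RefSeq genes of GRCm38.p6 and starts from its promoter table (32 of the 36 genes). Windows reached 1000 bp on each side and needed 5 listed cytosines for a mean. The members and all lists were chosen with earlier results of these data known. Described in full were called members and the 6 uncalled with the largest fold change, called genes of related lists (the 6 largest at most), and members with called cytosines at the start or most in the span. Other members were named for their role. The results of 1 related list are not reported here. Annotated spans of 17 members overlap another gene, of 6 a protein-coding one (Pcsk7 with Tagln, for example); the RNA kit was directional per the labels, but the strand setting of the counting is unknown. The p-values rest on 2 clones per group. Adjustment and window counts were tested on simulated data and run in Python 3.11.15 with pandas 2.3.3 and scipy 1.17.1. No column of the tables was left unmapped.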

Additional observations from a re-analysis of the deposited data

How the results depend on the processing

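Most other settings leave the fold change of a member as it was, so nearly all that can change is its side of the threshold. Methylation values of single members were counted apart, and of those 16 moved and 2 reversed in sign. Of 196 log2 fold changes of single members under other settings, 190 kept their direction and side of the threshold. The exceptions were Myl9 at an adjusted p under 0.01, Cald1 at that threshold, with a 2-fold minimum and with no filter on level, and Tagln and Myl6, called at an adjusted p under 0.1. Of the 56 counts, 35 were within 1.5 times of the reported one. The rest moved and are given below, with the counts beside them. At an adjusted p under 0.01, 1 member rose and 2 fell, 413 genes rose and 252 fell over all genes, and 1 gene of the related lists fell. At an adjusted p under 0.1, 5 members rose and 2 fell. With no filter on level, or with a 2-fold minimum, 2 members rose and 2 fell. With a 2-fold minimum, 6 genes of the related lists rose and 0 fell, and over all genes 331 rose and 122 fell; before that minimum DESeq2 called 2 lower in these lists, and 7 were lower at an unadjusted p under 0.05. With a mean level of at least 100, 1 member fell, since Des was left out. At q under 0.01, 24 cytosines in member spans were lower and 21 higher, and 19 and 12 at member starts. With a difference of at least 25 points these were 11 and 14 in spans, and 9 and 5 at starts. With 500 bp on each side, 13 of 1808 cytosines at starts were lower and 16 higher, so the larger of these counts changed sides. At Tpm2, 1 was then lower, beside 13 with 1000 bp. The window means turned to -0.73 points at Myl9 and 0.86 at Des. Adding the first base of the span as a start for Mylk, Flna and Srf, an alternative chosen after seeing the data, left 29 lower and 22 higher. Spans with 5000 bp added held 102 lower and 78 higher. Centring on the median of tested genes, a shift of -0.00 on the log2 scale, changed no call of a member. Leaving out a clone was not run, since the tables hold no value per library. No paired analysis was possible because the result comes from the authors' own test and clone numbers are not shared between groups.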

Other observations

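The members' promoters differed widely in CpG content. The 40 promoter sequences had a median of 18.5 CpGs in 300 bases, beside 7 over all 32851 promoter sequences. Actg1, Actn4 and Cnn3, genes of the general cytoskeleton, held 50, 35 and 33. Acta2 and Cnn1, which mark smooth muscle, held 6 each, Mylk 4 at a start inside the gene, and the sequences of Cald1 and Tnnt2 between 1 and 6. The kind of gene did not set the content throughout. Myl9 and Tpm2 held 20 each and the muscle filamin gene Flnc 19 and 30 at its starts, while Myl6 held 4 and 15 and Tpm3 3 and 15. The sequence TATAAA, searched on the strand of the gene, was found at Acta1 and Cald1 alone of the 32 genes, and at 9.77% of all genes.

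At the highest levels the fold changes of all genes were not centred on 0. Among 93 genes with a mean normalized count of at least 30000 the median log2 fold change was -0.36 in the authors' deposited table. The members at that level, Actb, Actg1, Myh9 and Flna, lay between 0.04 and 0.42 in the authors' deposited table. Whether composition of the libraries has a part in this was not tested.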
